A study of Homo sapiens with 12 samples.

Results

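CD96, DDAH1, EMB and ZNF114 are 4 genes of the 56638 in a count table of 501Mel cells, an established human melanoma line that carries the BRAF-V600E mutation. They were chosen from the response to TCDD: among genes called in TCDD against vehicle, with a mean of at least 50 counts in the higher group and groups that did not overlap, CD96 had the largest increase and DDAH1, EMB and ZNF114 the 3 largest decreases. All 4 were among the 16080 genes that passed the filter on low counts. Poly(A) RNA was sequenced from 12 libraries, 2 for each of 6 groups of cells exposed for 48 h. The groups received DMSO (vehicle), 10 nM TCDD, 1 µM Vemurafenib (Vem), 5 µM Resveratrol (RSV), RSV+TCDD or RSV+Vem. In the RSV+TCDD group the treatment protocol gives 10 nM TCDD and the source label of the libraries gives 1 nM, and the RSV dose is 5 µM as in the RSV group. All libraries came from 1 cell line, and nothing in the labels says whether the replicates were separate cultures, so the p-values measure the spread between these libraries only.

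TCDD, a dioxin, is a ligand of the aryl hydrocarbon receptor (AhR), a ligand-activated transcription factor that pairs with ARNT and binds xenobiotic response elements (XRE) with the core letters GCGTG. CYP1A1, a cytochrome P450 enzyme that oxidises polycyclic aromatic compounds, is its best known target. Vem inhibits mutant BRAF, and RSV was used in the study as an AhR antagonist. CD96 encodes a receptor of T and NK cells that binds the poliovirus receptor PVR and nectin-1. DDAH1 encodes an enzyme that breaks down asymmetric dimethylarginine, an inhibitor of nitric oxide synthases. EMB encodes embigin, a membrane glycoprotein that accompanies monocarboxylate transporters to the cell surface. ZNF114 encodes a zinc finger protein.

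Promoter sequences show where the AhR core motif lay. RefSeq (GRCh38.p14) promoters, from 250 bases before to 50 after a transcription start, were matched for 2 of the 4 members, CD96 with 1 start and DDAH1 with 3, and EMB and ZNF114 had no entry. The promoter of CD96 at chr3:111541947-111542246, plus strand, held GCGTG with its first base 65 bases before the start, in capitals below. The first DDAH1 promoter at chr1:85578151-85578450, minus strand, held the core on the opposite strand, read as CACGC in capitals, at position -223, and it also matched the longer TNGCGTG there.
CD96: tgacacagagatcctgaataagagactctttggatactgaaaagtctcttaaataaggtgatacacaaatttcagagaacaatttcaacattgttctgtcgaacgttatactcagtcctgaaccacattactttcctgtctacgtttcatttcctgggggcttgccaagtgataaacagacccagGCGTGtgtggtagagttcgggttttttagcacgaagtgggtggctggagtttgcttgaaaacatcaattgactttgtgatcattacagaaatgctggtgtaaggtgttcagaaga
DDAH1 start 1: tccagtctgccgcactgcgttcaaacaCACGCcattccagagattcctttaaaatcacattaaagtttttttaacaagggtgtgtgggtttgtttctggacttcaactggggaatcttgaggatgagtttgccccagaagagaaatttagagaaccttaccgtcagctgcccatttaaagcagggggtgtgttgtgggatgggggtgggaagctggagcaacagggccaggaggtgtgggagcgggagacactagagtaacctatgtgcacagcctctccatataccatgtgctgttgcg
Read on both strands, GCGTG was found in 36.5% of all 35116 promoters and TNGCGTG in 5.51%, so a core match alone is common. The shorter motif is contained in the longer one, and the search did not test binding. The second DDAH1 promoter, chr1:85465110-85465409, held none of the motifs searched and had a GC content of 75.3% against a median of 58.7% over all promoters. The third, chr1:85404457-85404756, matched TGANTCA, with N for any base, at position -212. This pattern is looser than the AP-1 consensus, which has C or G in the middle, and the letters there were TGAATCA. The pattern was found in 7.71% of all promoters. The E-box CACGTG was in none of the 4 promoters and in 7.26% of all. The counts do not say which start was used for DDAH1 or for CD96, which is annotated with 7 transcripts.

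In the GENCODE 44 annotation on GRCh37, CD96 spans chromosome 3, positions 111011566 to 111384597, plus strand, and DDAH1 spans chromosome 1, 85784164 to 86044046, minus strand. EMB spans chromosome 5, 49692026 to 49739082, minus strand, and ZNF114 spans chromosome 19, 48773338 to 48790865, plus strand. Counts were summed over exons by gene name, so they belong to no single transcript. ZBED2, inside CD96 on the other strand, shared 0 exonic bases with it and had 0 to 7 counts. ZNF114-AS1 shares 114 exonic bases with ZNF114 and was not matched in the table. Over 170 pairs of a coding gene and an overlapping antisense RNA, the antisense partner held a median of 0.274% of the pair's counts, so the counts followed the gene's strand.

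Library totals ran from 8378655 to 25076925 counts, and RNA integrity numbers from 8.6 to 9.7. The lowest of both were in the RSV+Vem group, with integrity numbers of 8.7 and 8.6 and totals of 17631920 and 8378655 counts. Melanocyte markers such as PMEL and TYR were high in all libraries, with the 8 summed to between 11162 and 51561 CPM, the counts scaled to library size by TMM. S100B, also among the 8, was much lower, at 8.30 to 57.6 CPM. Of 12 T and NK cell markers, CD3G and NKG7 were at 0 in all 12 libraries and CD3D and CD3E had a count in only 1 each. CD247, PRF1 and TIGIT reached 8, 10 and 5 counts and were at 0 in 1, 2 and 4 libraries. The sum of the 12 was 1.66 to 1.87 CPM with vehicle and 2.79 to 2.98 CPM with TCDD, the highest of the 6 groups. Much of it was GNLY, which reached 2.53 CPM. The 6 fibroblast markers summed to 13.03 to 16.5 CPM with vehicle and 32.1 to 39.7 CPM with TCDD, mostly LUM, the matrix proteoglycan lumican. The 6 keratinocyte markers, of which KRT1 was at 0 in all libraries, summed to 17.8 and 19.996 CPM with TCDD and to 19.3 and 20.2 CPM with vehicle. The fit tested 1 of the T and NK cell markers, GNLY, and 1 of the keratinocyte markers, KRT10, and called neither in TCDD against vehicle, while of 3 fibroblast markers tested LUM was called higher (log2 fold change 1.47), and COL1A1 (-0.93) and PDGFRA (1.19) were not called. Their part in the changes of the 4 genes was not tested.

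CD96 stood highest with TCDD alone and did not keep that level when RSV was present. It had 1.11 and 0.566 CPM with vehicle, from 22 and 14 counts, and 5.64 and 5.51 CPM with TCDD, from 125 and 75 counts. Bulk counts cannot tell more expressing cells from more RNA per cell. The replicates of TCDD lay close together and far above every other library. RSV gave 1.63 and 1.68 CPM, RSV+TCDD 0.862 and 2.12, RSV+Vem 0.532 and 0.675, and Vem 0.139 and 0.231. The Vem values came from 2 and 3 counts, and the 95% counting intervals of the RSV+TCDD replicates, 0.502 to 1.38 and 1.55 to 2.84 CPM, did not overlap. In order of mean level, TCDD (5.58 ± 0.0900 CPM, SD, n = 2) was above RSV (1.65 ± 0.0377), and RSV+Vem (0.603 ± 0.101) was above Vem (0.185 ± 0.0647), by more than the replicates' spread, taken as the sum of both SDs with ranges that did not overlap. RSV, RSV+TCDD (1.49 ± 0.890), vehicle (0.840 ± 0.387) and RSV+Vem did not differ beyond their spread, each from the next in order. The vehicle and TCDD libraries chose the genes. For every member, an ordering that involves either of these groups is therefore a description and not a test.

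DDAH1 was low with TCDD, with Vem and with RSV+TCDD, and high in the other groups. The vehicle libraries had 14.9 and 14.7 CPM, the RSV libraries 18.3 and 23.6, and the RSV+Vem libraries 10.9 and 15.9. The TCDD libraries had 3.07 and 3.09 CPM, the Vem libraries 4.66 and 4.84, and the RSV+TCDD libraries 5.22 and 6.97. Every library of the first 3 groups lay above every library of the other 3. RSV (21.0 ± 3.72 CPM, SD, n = 2) exceeded vehicle (14.8 ± 0.108), RSV+Vem (13.4 ± 3.54) exceeded RSV+TCDD (6.10 ± 1.24), and Vem (4.75 ± 0.129) exceeded TCDD (3.08 ± 0.0134) beyond the spread. Vehicle and RSV+Vem did not, nor did RSV+TCDD and Vem. The orderings of DDAH1 with vehicle or TCDD are descriptions, since those libraries chose the gene.

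EMB was a low-count gene, with 3 to 65 counts in a library. Vehicle libraries held 2.58 and 2.63 CPM, against 1.87 and 2.05 in those of RSV, 0.851 and 1.35 in those of RSV+Vem, and 1.25 and 0.615 in those of Vem. They were 0.812 and 0.221 with TCDD, from 18 and 3 counts, and 0.456 and 0.565 with RSV+TCDD, from 9 and 12 counts. The vehicle and RSV libraries lay above all others. Vehicle (2.61 ± 0.0344 CPM, SD, n = 2) exceeded RSV (1.96 ± 0.127) and RSV exceeded RSV+Vem (1.10 ± 0.352) beyond the spread. RSV+Vem, Vem (0.933 ± 0.450), TCDD (0.516 ± 0.418) and RSV+TCDD (0.511 ± 0.0772) did not differ beyond it, each from the next in order. Vehicle over RSV is a description for EMB, as are the orderings with TCDD, since the vehicle and TCDD libraries chose the gene.

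ZNF114 showed an intermediate level with RSV+TCDD. The vehicle libraries differed, at 36.3 and 21.3 CPM from 717 and 526 counts, and the RSV libraries had 25.9 and 28.5. With RSV+TCDD the values were 17.4 and 19.3 CPM, below every vehicle and RSV library. They were 9.90 and 10.5 with RSV+Vem, 9.84 and 8.53 with TCDD, and 8.48 and 7.84 with Vem, all below the RSV+TCDD libraries. RSV (27.2 ± 1.80 CPM, SD, n = 2) exceeded RSV+TCDD (18.4 ± 1.33), and RSV+TCDD exceeded RSV+Vem (10.2 ± 0.397), beyond the spread. Vehicle (28.8 ± 10.6) and RSV did not differ beyond it. RSV+Vem, TCDD (9.18 ± 0.926) and Vem (8.16 ± 0.457) did not either, each from the next in order. The RSV+Vem and Vem libraries, which are not next to each other in this order, did not overlap.

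**Figure D1:**
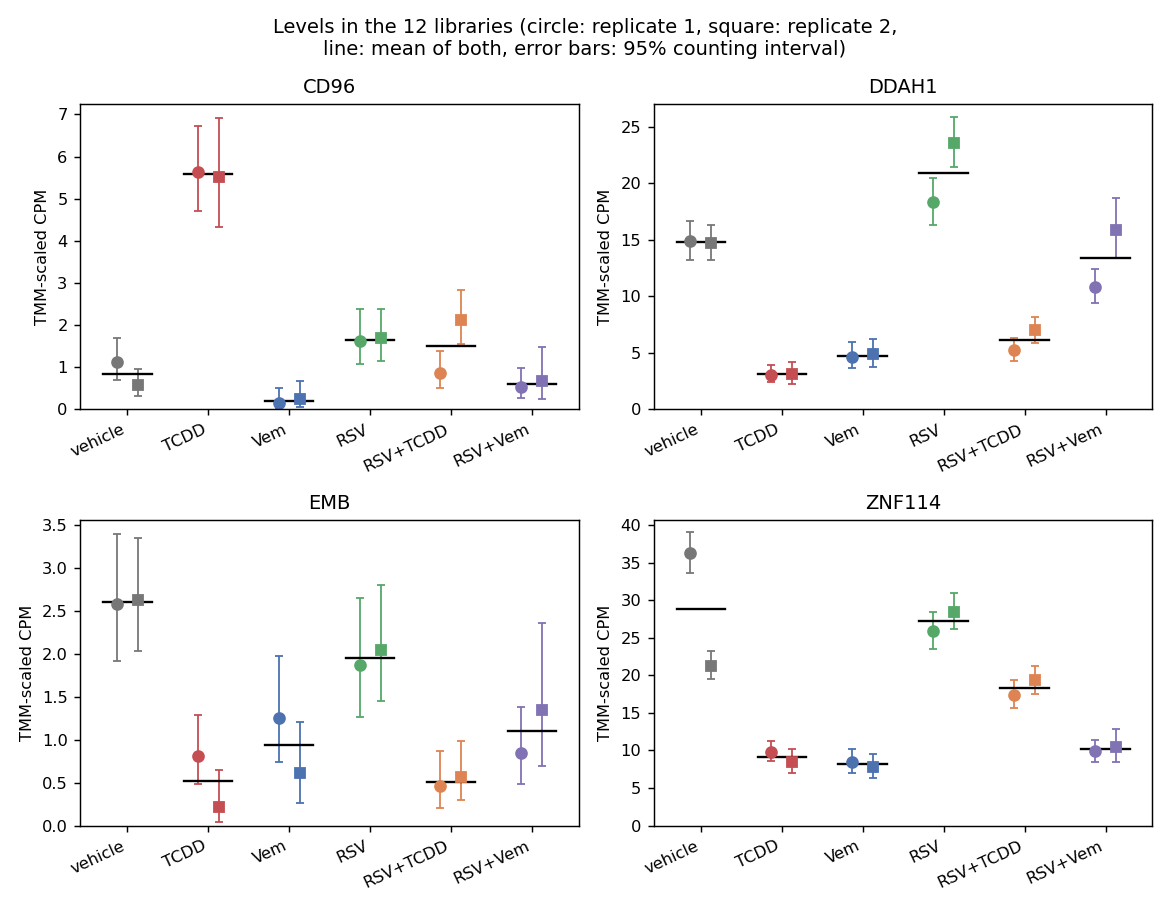
TMM-scaled CPM (vertical axis, from 0) of the 4 genes in each of the 12 libraries by treatment group, with 95% counting intervals and the mean of each pair as a line. The 2 TCDD libraries of CD96 lie at 5.64 and 5.51 CPM, above all others, while those of DDAH1, EMB and ZNF114 lie below both vehicle libraries.

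The contrast of TCDD with vehicle chose the genes, so its values are a description. In that contrast 6.73% of the tested genes were called, 4.72% higher and 2.01% lower. The log2 fold change was 2.76 for CD96 (standard error 0.35), a fold of 6.77. It was -2.26 for DDAH1 (0.21), -2.17 for EMB (0.40) and -1.63 for ZNF114 (0.20). The EMB level was 4.44 times lower by the ratio of summed counts, 21 against 116, with a 95% counting interval of 2.77 to 7.45, and its log2 fold change was -3.52 without TCDD replicate 1 and -1.67 without replicate 2. Below CD96 among the 694 genes that rose under the same limits came CYP1A1 at 2.62, CTD-2023N9.1 at 2.55 and CST2 at 2.44. Beyond ZNF114 among the 300 that fell came MYOF at -1.55, close to the last chosen gene. The order depended on the fit: without edgeR's robust option EGR3, an early growth response transcription factor, was also called at -3.65 and ranked 1st among the decreases, with DDAH1, EMB and ZNF114 ranked 2 to 4.

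Whether TCDD moved the same genes in the presence of RSV was asked by contrasting libraries that did not choose them. The spread was still fitted over all 12 libraries, which include those of vehicle and TCDD. In RSV+TCDD against RSV, 6.16% of the tested genes were called, 3.89% higher and 2.28% lower. Of the 4 members, 2 passed, both lower. DDAH1 fell by 1.78 in log2 units (edgeR's quasi-likelihood test, Benjamini-Hochberg adjusted p = 1.01e-04, standard error 0.19), lower in 2 of 2 libraries. EMB fell by 1.92 (standard error 0.42, adjusted p = 0.0109, same edgeR test), also with groups that did not overlap. For EMB the call was lost without RSV replicate 2 or either RSV+TCDD library, with adjusted p up to 0.0820 by the same edgeR test. DESeq2 gave EMB a log2 fold change of -1.94 and no adjusted p.

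The other 2 did not pass. ZNF114 had a log2 fold change of -0.57 (standard error 0.19, 95% interval -0.96 to -0.17, adjusted p = 0.0808 in edgeR), and its groups did not overlap. The fitted spread includes the vehicle libraries, which differed for this gene (36.3 and 21.3 CPM) and are not in the contrast. With only the 4 libraries compared, ZNF114 was at -0.58 (standard error 0.15, adjusted p = 0.0403 in edgeR) and passed. Its adjusted p ranged from 0.00185 to 0.319 over 21 alternatives of the fit, and in 6 of them it passed. CD96 had a log2 fold change of -0.14 (standard error 0.37, 95% interval -0.91 to 0.63, adjusted p = 0.879 in edgeR), and the groups overlapped. The CD96 value turned to 0.36 without RSV+TCDD replicate 1 and was -0.93 without replicate 2. With 2 libraries against 2 an exact permutation test of 1 gene cannot give a p below 0.333, so these p-values rest on the model fitted over all genes.

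The effect of TCDD without and with RSV can be set side by side, as a description since the first was used in the choice. CD96 changed by 2.76 and -0.14, DDAH1 by -2.26 and -1.78, EMB by -2.17 and -1.92, and ZNF114 by -1.63 and -0.57, all on the log2 scale. The values without RSV chose the genes, so no difference was tested. Against TCDD alone, where 37.7% of genes were called, RSV+TCDD stood at -1.89 for CD96, 0.99 for DDAH1, -0.16 for EMB and 0.99 for ZNF114. The doses of TCDD in these groups are given as equal in the protocol and as different in the source labels, and the RSV addition cannot be told apart from that difference if the labels are right.

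With Vem in place of TCDD, CD96 lay on the other side of vehicle. Vem against vehicle, a contrast in which 52.4% of genes were called and 26.9% were lower, shares the vehicle libraries with the contrast that chose the genes and is given as values only. The log2 fold changes were -2.12 for CD96 (standard error 0.67), -1.64 for DDAH1 (0.21), -1.46 for EMB (0.39) and -1.81 for ZNF114 (0.21). For CD96 the ratio of summed counts, 5 with Vem and 36 with vehicle, corresponded to a level 4.43 times lower with a 95% counting interval of 1.73 to 14.5. RSV against vehicle, with 40.7% called, gave 1.01 for CD96, 0.50 for DDAH1, -0.41 for EMB and -0.07 for ZNF114.

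In the presence of RSV the effect of Vem could be tested. In RSV+Vem against RSV, 24.7% of genes were called, 11.3% higher and 13.4% lower, and 3 of the 4 members fell. ZNF114 fell by 1.42 (standard error 0.20, adjusted p = 1.02e-04, Benjamini-Hochberg, edgeR's quasi-likelihood test). CD96 fell by 1.499 (standard error 0.47, adjusted p = 0.0274) and DDAH1 by 0.69 (standard error 0.18, adjusted p = 0.0101) in the same edgeR test. EMB had a log2 fold change of -0.92 (95% interval -1.78 to -0.07, adjusted p = 0.106 in edgeR). For each gene both RSV+Vem libraries lay below both RSV libraries. The share of all genes that separate in this way was not counted, so the separation is a description only. The CD96 call was lost when any 1 of the RSV or RSV+Vem libraries was left out (edgeR adjusted p up to 0.233), and the DDAH1 call without RSV replicate 2 (-0.49) or RSV+Vem replicate 1 (-0.41). This contrast and the one of RSV+TCDD share the RSV libraries.

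**Figure D2:**
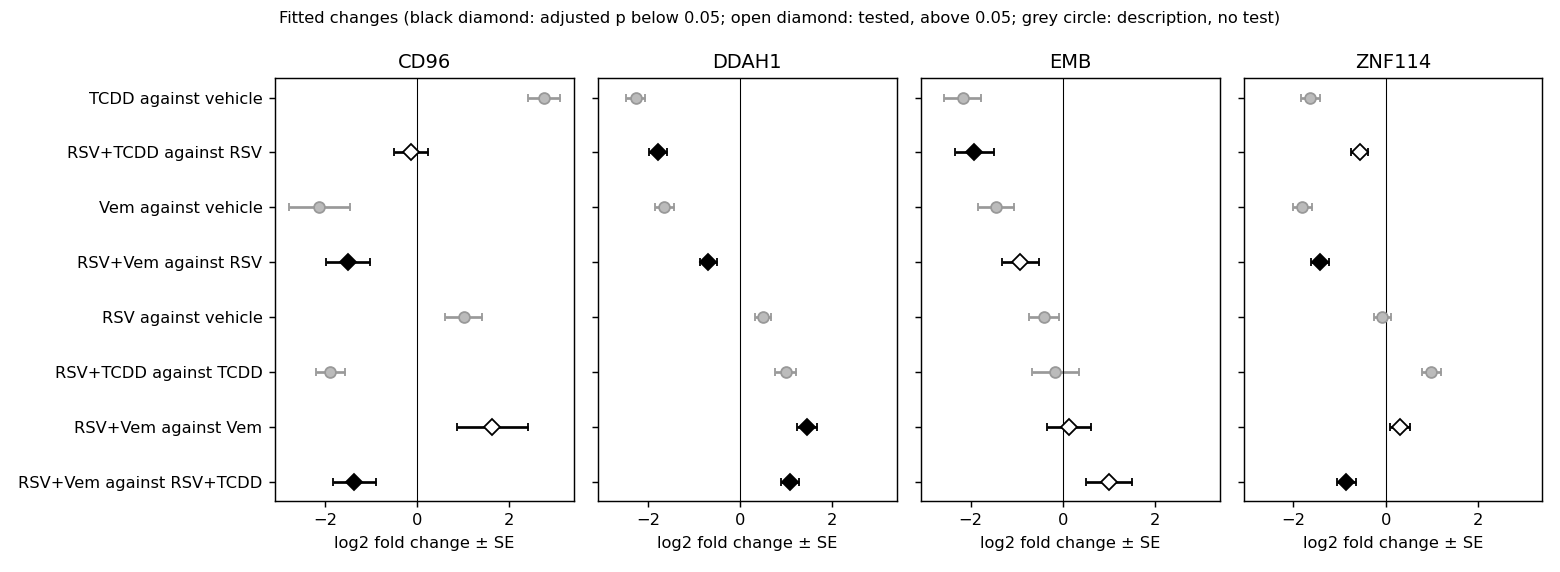
Log2 fold changes with standard errors (horizontal axis) of the 4 genes in 8 comparisons, with black diamonds for adjusted p below 0.05, open diamonds for tested values above it and grey circles for descriptions. CD96 is at 2.76 for TCDD against vehicle and at -0.14 for RSV+TCDD against RSV, while DDAH1 and EMB are near -2 in both.

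DDAH1 separated the ligands in the presence of RSV. In RSV+Vem against RSV+TCDD, 22.5% of genes were called, 9.19% higher and 13.3% lower. DDAH1 was higher by 1.09 (standard error 0.20, adjusted p = 5.85e-04, Benjamini-Hochberg, edgeR's quasi-likelihood test). ZNF114 fell by 0.86 (standard error 0.21, adjusted p = 0.00611) and CD96 by 1.36 (standard error 0.47, adjusted p = 0.0458) in the same edgeR test. The CD96 call was lost in 7 of 12 fits that left out 1 library and was kept in 8 of 20 alternatives in all. Without RSV+TCDD replicate 2 the value was -0.57 (edgeR adjusted p = 0.517). EMB had a log2 fold change of 1.00 with a 95% interval of -0.03 to 2.03 (edgeR adjusted p = 0.156). The ZNF114 call was lost without RSV+Vem replicate 1 (edgeR adjusted p = 0.0725).

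Adding RSV to Vem raised DDAH1. Of all genes 37.9% were called in RSV+Vem against Vem, 19.1% higher and 18.7% lower. Among the 4 members DDAH1 alone passed, a count not above that share. It was higher by 1.45 (standard error 0.21, adjusted p = 3.70e-05, Benjamini-Hochberg, edgeR's quasi-likelihood test). CD96 was at 1.63 (95% interval 0.02 to 3.24, edgeR adjusted p = 0.102), from 16 counts against 5, a ratio of 3.17 with a 95% counting interval of 1.11 to 11.1. ZNF114 was at 0.31 (95% interval -0.17 to 0.79, edgeR adjusted p = 0.302) and EMB at 0.12 (95% interval -0.87 to 1.12, edgeR adjusted p = 0.862). The EMB groups overlapped.

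**Figure D3:**
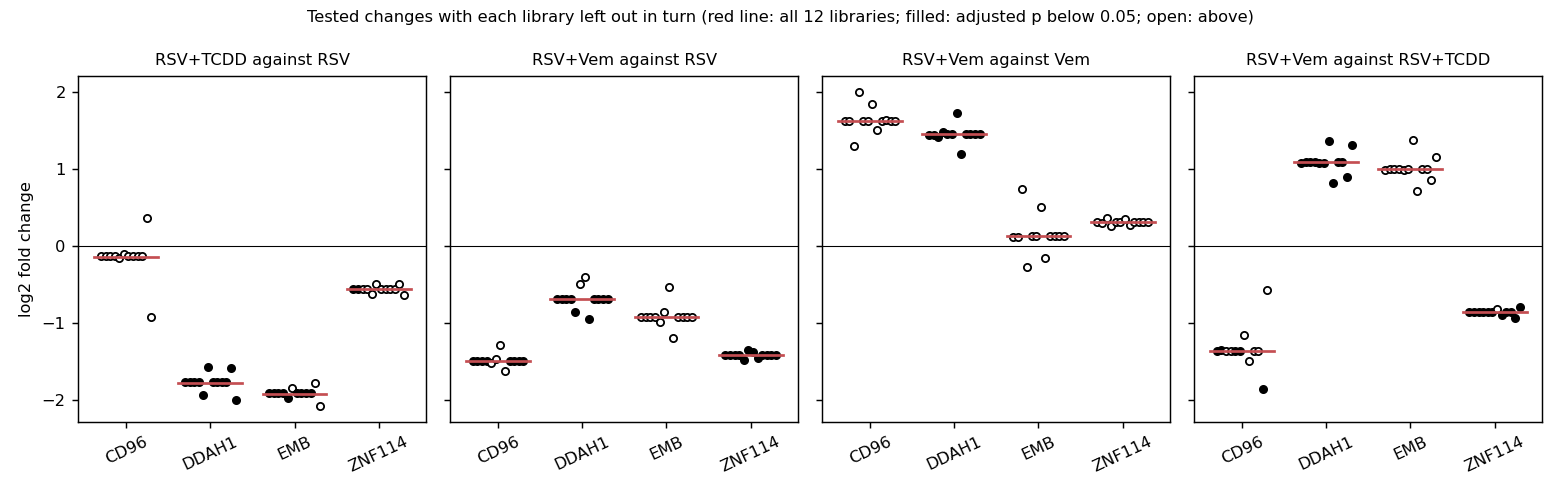
Log2 fold changes (vertical axis) in the 4 tested comparisons, each point with 1 of the 12 libraries left out and the red line with all 12, filled where the adjusted p was below 0.05. DDAH1 in RSV+TCDD against RSV stays at -1.58 or lower and filled throughout, while CD96 there runs from -0.93 to 0.36 and is open throughout.

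Other genes of the pathways of the members were taken from lists made from general knowledge, which exclude the members. All directions are relative to the median of all genes, which scaling to the ERCC spike-ins shifted by -0.51 in TCDD against vehicle and -1.02 in RSV+TCDD against RSV, so that increases smaller than these became decreases. In TCDD against vehicle 6.73% of all genes were called and in RSV+TCDD against RSV 6.16%, and the counts below stand beside these shares. Of 7 tested genes of the CD96 and nectin family, 1 was called in the first contrast and 3 in the second. CADM4, an adhesion molecule, rose with TCDD against vehicle (log2 fold change 0.88) and in RSV+TCDD against RSV (0.47). PVRL2, encoding nectin-2, also rose in RSV+TCDD against RSV (0.48), and PVRL1, encoding the CD96 ligand nectin-1, fell by 0.86. DESeq2 called 1 gene of this list higher in the first contrast. In the second it called 2 higher and 0 lower, so it did not call the PVRL1 decrease. The main CD96 ligand PVR was at -0.12 and -0.05 in these contrasts and passed in neither. The median over the 7 genes was -0.05 in RSV+TCDD against RSV, where the median of all tested genes was 0.00.

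Among 14 tested genes of dimethylarginine and arginine metabolism the edgeR test called 0 in both contrasts, with 2 at an unadjusted p below 0.05 in TCDD against vehicle and 0 in RSV+TCDD against RSV, and DESeq2 called 0 in both. In a list of this size a count of 0 is near the share over all genes. DDAH2, the other dimethylarginine hydrolase, was at 0.07 and -0.26. Of 6 tested genes of embigin, basigin and monocarboxylate transport, LDHA, the lactate dehydrogenase subunit, fell by 0.47 with TCDD and was at 0.01 in RSV+TCDD against RSV. There the edgeR test called 0 of the 6, with 2 at an unadjusted p below 0.05, and DESeq2 called 0. The embigin relatives BSG and NPTN were at 0.11 and -0.09 with TCDD and at 0.14 and -0.04 in RSV+TCDD against RSV. Of 14 tested genes of the corepressor complex used by KRAB zinc finger proteins, 0 passed in edgeR and in DESeq2 in both contrasts, with 0 and 1 at an unadjusted p below 0.05, and its scaffold TRIM28 was at -0.17 and -0.07. The medians of these lists in RSV+TCDD against RSV were -0.01, 0.00 and 0.01.

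Of 10 listed AhR targets known from other cells 6 were tested, and 5 rose with TCDD against vehicle, where 4.72% of all genes were called higher. Among them were CYP1A1 (2.62), CYP1B1 (2.20), the quinone reductase gene NQO1 (1.04) and TIPARP (0.96), an AhR repressor. The remaining target, AHRR, was at -0.16 and was not called, and DESeq2 called 4 of the 6 higher. In RSV+TCDD against RSV, where 3.89% of all genes were called higher, 0 rose and CYP1A1 fell by 0.70 (edgeR adjusted p = 0.00185), with 2 higher at an unadjusted p below 0.05 and 0 higher in DESeq2. The difference between these contrasts was not tested for these genes. For CYP1A1 the reference of the second, RSV alone, already stood above vehicle, with a log2 fold change of 1.55. In RSV against vehicle 2 of the 6 targets were called higher and 0 lower, where 20.5% of all genes were called higher. Of 8 melanocyte genes, 3 were called higher with TCDD and 5 in RSV+TCDD against RSV, with TYR, encoding tyrosinase, at 0.59 and 0.70. Of the others, S100B was at -0.07 and -0.29, MITF at -0.24 and 0.25, and SOX10 at -0.06 with TCDD, none of them called, while SOX10 was called at 0.37 in RSV+TCDD against RSV.

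Of 26 annotated protein-coding genes within 200 kb, 23 were tested, and edgeR called 0 of them in TCDD against vehicle and in RSV+TCDD against RSV, with 3 and 2 at an unadjusted p below 0.05, where 6.73% and 6.16% of all genes were called. DESeq2 called 1 and 0. The gene it called was CYR61, now CCN1, a matrix protein gene 2.398 kb from DDAH1, at -1.58 with TCDD and -0.90 in RSV+TCDD against RSV. CYR61 also passed in TCDD against vehicle in edgeR without the robust option. With RSV+Vem against RSV, 3 of the 23 were called, where 24.7% of all genes were. EMB had no annotated protein-coding neighbour in that distance.

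Genes whose level followed each member over the 12 libraries were found by Pearson's r of log2 CPM among genes with a mean of at least 50 counts. These values describe the libraries, which share groups and scaling, and carry no p. CYP1A1 was most like CD96 (r = 0.95), followed by RP11-838N2.4 (0.93) and KLF9 (0.93), a zinc finger transcription factor. CYP1A1 had group means of 23.3 CPM with vehicle, 143.5 with TCDD, 12.97 with Vem, 68.3 with RSV, 42.0 after RSV+TCDD and 25.2 after RSV+Vem. The highest group for both genes was TCDD and the lowest Vem, with RSV second, and the shared place of TCDD follows in part from the choice, since CYP1A1 ranked next to CD96 among the increases.

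RAPH1, encoding lamellipodin, a regulator of actin at the cell edge, was most like DDAH1 (r = 0.95), then HDAC9 (0.94) and ZNF217 (0.91). RAPH1 moved less, from 42.8 CPM with TCDD to 67.0 with RSV. ITGB8, encoding integrin beta 8, was most like EMB (r = 0.94), then FAM122B (0.87) and SLC35G1 (0.86), with ITGB8 at 5.03 CPM with TCDD and 9.37 with vehicle. AC104389.28 (0.93), ETV3 (0.93) and CNKSR2 (0.92) were most like ZNF114. With Spearman's rho in place of Pearson's r, and ties counted at their best rank, 1 of the 3 genes of CD96 (CYP1A1), 3 of DDAH1, 2 of EMB and 0 of ZNF114 were among the first 3.

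**Figure D4:**
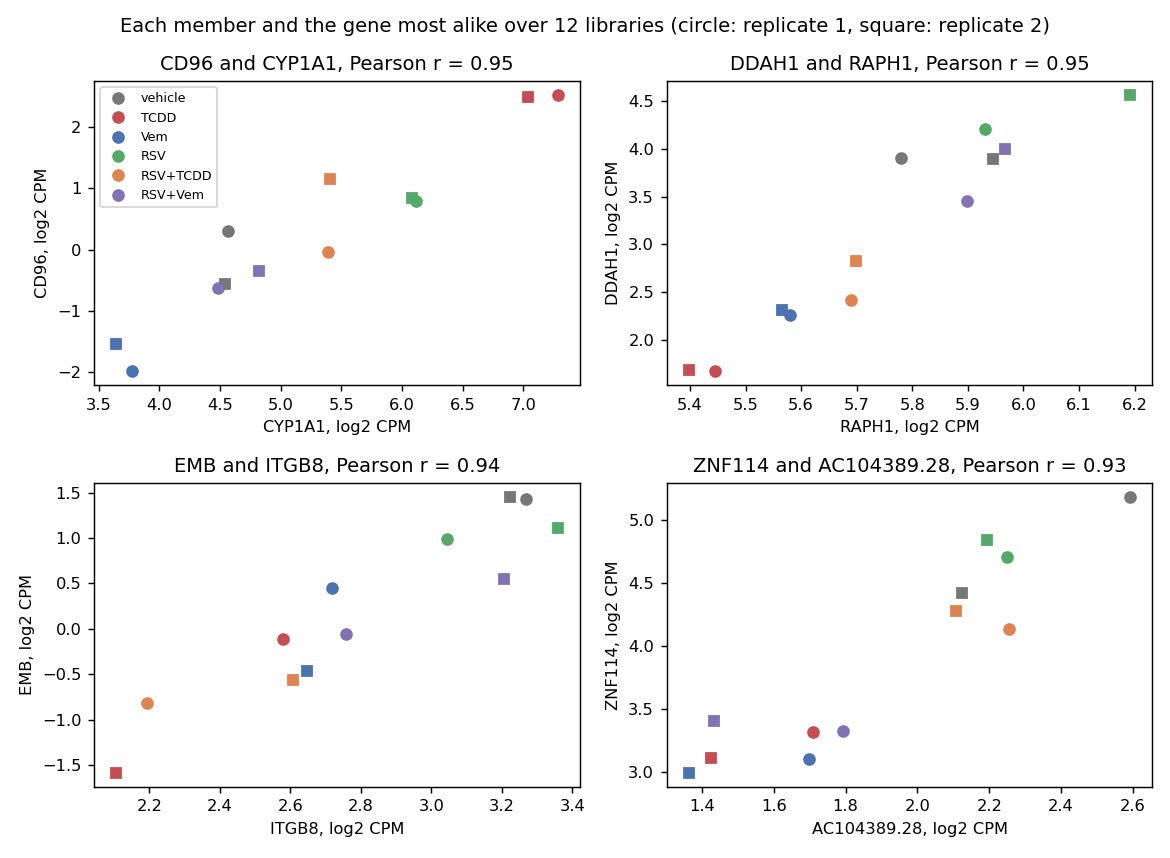
Log2 CPM of each member (vertical axes) against log2 CPM of the gene most like it (horizontal axes) in the 12 libraries, coloured by group. CD96 and CYP1A1 (r = 0.95) are both highest in the 2 TCDD libraries and lowest in the 2 Vem libraries.

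Among the members, DDAH1 and EMB had r = 0.80 over the 12 libraries, DDAH1 and ZNF114 0.70, and EMB and ZNF114 0.63, with Spearman's rho of 0.71, 0.79 and 0.63. CD96 had r of -0.20 with DDAH1, -0.30 with EMB and 0.17 with ZNF114. The 3 genes chosen for a decrease share that direction by choice, which bears on these values.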

How the data were processed

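RNA from 12 libraries of 501Mel cells was sequenced by the authors as stranded, paired poly(A) libraries. They aligned reads to hg19 with STAR 2.4.0a and counted primary alignments per gene name with featureCounts (Subread 1.5.0-p3). The annotation release is not given in the sources used here. The deposited values are raw counts, with 96 control sequences, 92 of them ERCC spike-ins (0.0310% to 0.0936% of counts), which were left out of library sizes and tests. The labels give 1 µg and the study's methods a different input of RNA.

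Genes were filtered by filterByExpr, scaled by TMM and fitted by edgeR 4.0.16 (glmQLFit, robust, in R 4.3.3) with 1 term per group over all 12 libraries. Calls are at a Benjamini-Hochberg adjusted p below 0.05 over the 16080 genes tested. The robust option was added after the data were seen. Values in CPM use TMM library sizes, with a prior of 2 counts on the log2 scale, and 95% intervals of single counts are exact Poisson intervals, which cover counting error only. DESeq2 1.42.0 was an alternative. On simulated counts for RSV+TCDD against RSV (15578 genes), edgeR called 76 of 105 genes changed by 1 on the log2 scale, 83 of 95 changed by 2, and 11 unchanged genes.

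Members and lists were chosen with earlier results of these data known. The text names the members, for each the 3 genes with the highest r, the next genes in rank in TCDD, coding neighbours within 200 kb, up to 4 called genes a list, and DDAH2, BSG, NPTN, TRIM28 and PVR. GNLY, KRT1, KRT10, CD3D, CD3E, CD3G, NKG7, CD247, PRF1, TIGIT and S100B were named as defining markers after their values were seen. AHRR was named after its values were seen, as the tested AhR target that was not called. Contrasts with vehicle or TCDD libraries give no p for the members. Older gene symbols were matched through RefSeq synonyms. Replicates of a group differed by more than counting noise in every group.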

Additional observations from a re-analysis of the deposited data

Results flagged for a closer look

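The CD96 level lay on different sides of its reference when RSV was added to cells under different treatments. The RSV libraries lay above the vehicle libraries (log2 fold change 1.01, from 0.57 to 1.53 with each library left out in turn, lowest without vehicle replicate 2 and highest without vehicle replicate 1). The RSV+TCDD libraries lay below the TCDD libraries (-1.89, from -2.68 without RSV+TCDD replicate 2 to -1.39 without RSV+TCDD replicate 1), and the first change minus the second was 2.90. The RSV+Vem libraries lay above the Vem libraries (1.63), but this change did not pass (edgeR adjusted p = 0.102) and rested on 16 counts against 5. The change in TCDD-treated cells minus that in Vem-treated cells was -3.52. In all these pairs the libraries of both groups did not overlap. The differences were not tested, since the TCDD and vehicle libraries chose the gene.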

How the results depend on the processing

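DDAH1 in RSV+TCDD against RSV and ZNF114 in RSV+Vem against RSV kept direction and call in all 21 alternatives. Scaling to the ERCC spike-ins, a small share of the counts in each library, moved the median of all genes. That share differed between the replicates of RSV+Vem (0.0389% and 0.0903%) and of RSV+TCDD (0.0630% and 0.0936%). In vehicle it was 0.0316% and 0.0310%. The median moved by -1.02 in RSV+TCDD against RSV, -0.52 in RSV+Vem against RSV and -0.02 in RSV+Vem against Vem. It moved by 0.51 in RSV+Vem against RSV+TCDD, -0.51 in TCDD against vehicle and -0.70 in RSV+TCDD against TCDD. The called genes became 6927 (1 higher, 6926 lower), 481, 389, 242, 10 and 1912 in that order. Under this scaling ZNF114 passed in RSV+TCDD against RSV (-1.60). CD96 (-2.04) and DDAH1 (-1.27) in RSV+Vem against RSV and DDAH1 (1.34) in RSV+Vem against Vem lost their calls. So did CD96 (-0.77), DDAH1 (1.56) and ZNF114 (-0.35) in RSV+Vem against RSV+TCDD. The cause was not tested. ZNF114 in RSV+TCDD against RSV also passed with no filter (-0.55) and with only the 4 libraries compared (-0.58), where 586 genes were called. CD96 in RSV+Vem against RSV+TCDD was lost with DESeq2 (-1.35), with only the 4 libraries (-1.37) and without the robust option (-1.36), which was added after seeing the data and called 1030 genes in TCDD against vehicle and 916 in RSV+TCDD against RSV. The main counts were 1082 and 991.

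Same-numbered replicates deviated together in 6 of 15 pairs of groups and oppositely in 4, and the labels name no shared batch, so no pairing was taken as given. Among the groups with RSV the correlations were 0.36 (RSV and RSV+TCDD), 0.43 (RSV and RSV+Vem) and 0.31 (RSV+TCDD and RSV+Vem), a hint of pairing from the data. A replicate block over the 12 libraries gave -1.33 for CD96 in RSV+Vem against RSV+TCDD, no longer called. Restricting the replicate block to the 6 libraries with RSV, an alternative chosen after seeing the data, gave 2406 calls in RSV+TCDD against RSV and -0.58 for ZNF114, which passed. Crossed numbers gave 8183 calls in RSV+TCDD against TCDD.

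With each library left out in turn, calls ranged from 330 to 1310 in RSV+TCDD against RSV, 2031 to 4340 in RSV+Vem against RSV, 4163 to 6352 in RSV+Vem against Vem, 2029 to 3940 in RSV+Vem against RSV+TCDD, 293 to 1306 in TCDD against vehicle and 3526 to 6398 in RSV+TCDD against TCDD. The lone library left in a group is then assumed to vary like the others. In RSV+TCDD against RSV, CD96 ranged from -0.93 to 0.36 (reversed without RSV+TCDD replicate 1), EMB from -2.08 to -1.78 and ZNF114 from -0.64 to -0.49. For RSV+Vem against RSV, CD96 ranged from -1.62 to -1.29 and DDAH1 from -0.95 to -0.41. For RSV+Vem against Vem, EMB ranged from -0.28 to 0.74, reversed without Vem replicate 2 (-0.28) or RSV+Vem replicate 2 (-0.15). For RSV+Vem against RSV+TCDD, CD96 ranged from -1.86 to -0.57 and ZNF114 from -0.93 to -0.79. ZNF114 in RSV against vehicle turned to 0.35 without vehicle replicate 1, and EMB in RSV+TCDD against TCDD to 1.19 without TCDD replicate 1, against -0.66 without replicate 2. With at least 10 counts in every library CD96 and EMB had no value, and DESeq2 gave no adjusted p for EMB in RSV+TCDD against RSV.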
